A study of Mus musculus with 12 samples.

Results

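The genes described here are those of the mouse major histocompatibility complex (MHC, called H2 in mice) and of the machinery that prepares peptides for display. Their members were chosen by name: every gene of the count table whose symbol starts with H2-, which gave 31 genes, and 10 further genes, B2m, Tap1, Tap2, Tapbp, Nlrc5, Ciita, Cd74, Psmb8, Psmb9 and Psmb10. These are 41 of 17379 genes. The rule itself used names and no measured value, but it was set with earlier results of these data known. mRNA was sequenced from 12 hearts of mice aged 6 months, 3 in each of 4 groups. The nontransgenic group was C57BL/WT (2 males and 1 female). The MYBPC3 deletion group was homozygous for MYBPC3Δ25bp, a deletion of 25 bp in the gene of cardiac myosin-binding protein C (2 males and 1 female). The HRC variant group was heterozygous for HRCS96A, a variant of HRC, which binds calcium in the sarcoplasmic reticulum (3 females), and the compound group was heterozygous for HRCS96A and homozygous for MYBPC3Δ25bp (3 females). The sources used here do not say how the lines were made, which chambers of the heart were taken or whether the 3 hearts of a group came from separate litters. Every p-value therefore speaks only of the scatter among these 12 hearts.

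Class I molecules are made by nearly all nucleated cells. A heavy chain pairs with B2m (beta-2 microglobulin) and shows peptides from inside the cell to CD8 T cells; the peptides are cut by proteasomes, pumped into the endoplasmic reticulum by the Tap1-Tap2 transporter and loaded with the help of Tapbp (tapasin). Class II molecules are made mainly by macrophages, dendritic cells and B cells, and show peptides from taken-up material to CD4 T cells; Cd74, the invariant chain, guards their groove until H2-DM exchanges it for a peptide. Nlrc5 is the coactivator of class I genes and Ciita that of class II genes, and both pathways are induced by interferon gamma.

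Total counts were 15615182 to 20581197 per library. Levels are given as CPM, that is counts relative to the library's total, scaled by TMM (trimmed mean of M values), and each named library is the labelled replicate of its group. Of the 41 genes, 33 passed the filter on low counts: 14 class I heavy chains, 9 class II genes with Cd74, B2m, the 3 loading genes, the 3 immunoproteasome subunits, both coactivators, and H2-Ke6, a steroid dehydrogenase gene of the region that presents nothing. Counts of members below are over these 33 and not over all 41. Markers of heart muscle were abundant in every library (61756 to 98047 CPM summed over 7 genes). Summed over 5 genes, atrial muscle markers ran from 131 to 8477 CPM, with 131 to 419 in the 3 compound libraries, 196 in HRC variant library 3 and 2758 to 8477 in the others. The part of this in the results was not tested. All 3 compound libraries were low, so in that group a low level of these markers cannot be told apart from the genotype. The HRC variant group held both low and higher libraries.

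Most of these genes lie in one region of chromosome 17: 32 of the 41 are placed there in the deposited table. By RefSeq's coordinates for GRCm38.p6, H2-K1 (gene 14972) spans 33996012 to 34000619 (minus strand), H2-Ab1 34263227 to 34269418, H2-Aa (gene 14960) 34282744 to 34287823 (minus strand), H2-Eb1 34305867 to 34316674, H2-D1 (gene 14964) 35263094 to 35267497 and H2-Q7 (gene 15018) 35439140 to 35443773. Outside it, B2m (gene 12010) lies on chromosome 2 (122147687 to 122153082), Nlrc5 (gene 434341) on chromosome 8 (94434335 to 94527272) and Ciita on chromosome 16 (10480014 to 10531064). Heavy chain genes are close copies. Of the 50-base windows in the GENCODE transcripts, 35.8% of H2-T22's, 31.6% of H2-T10's, 27.1% of H2-Q7's, 14.3% of H2-D1's and 8.11% of H2-K1's also occurred in another gene, against 0% for B2m, Cd74, H2-Ab1, H2-Eb1, Nlrc5, Ciita and the 3 immunoproteasome subunits. The share was 27.2% for H2-DMb1 and 29.5% for H2-DMb2, and H2-Ke6 shared 96.3% with an overlapping predicted gene. The split of reads among copies depends on the counting, for which the sources used here name no tool. H2-Q8 and H2-Q9 had no transcript to compare, and the deposited table places both on an unplaced scaffold. Its coordinates for H2-K1, H2-T10 and H2-T23 mix chromosome 17 with scaffolds, which is why RefSeq's are given.

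The promoters of class I and class II genes are known to share an upstream module, the SXY module, on which both coactivators act and which ends in a reversed CCAAT box. The first 5 sequences below are shown because their genes were high and low in the same libraries, as described further on, and Tapbp is shown as a loading gene that varied little. Capitals mark the kB letters GGGGATTCC, the interferon response letters AAGTGAAA, the letters CCAAT, and a spaced pair made of TGANG and, 19 to 21 bases later, ATTGG, the reverse of CCAAT, so that the pair overlaps a CCAAT match. Each was searched on both strands of the 250 bases before the start. The sequences are RefSeq's (GRCm38.p6), 5′ to 3′ on the gene's own strand, up to 180 bases before the start. The H2-Q7 run ends where RefSeq's gene begins, inside a CCAAT match whose first base is its last capital.
H2-D1 (chr17:35262914-35263093, plus): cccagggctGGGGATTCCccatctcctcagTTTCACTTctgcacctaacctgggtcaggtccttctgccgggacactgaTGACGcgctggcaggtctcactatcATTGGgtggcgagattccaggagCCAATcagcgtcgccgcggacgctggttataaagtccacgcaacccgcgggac
H2-Q7 (chr17:35438975-35439139, plus): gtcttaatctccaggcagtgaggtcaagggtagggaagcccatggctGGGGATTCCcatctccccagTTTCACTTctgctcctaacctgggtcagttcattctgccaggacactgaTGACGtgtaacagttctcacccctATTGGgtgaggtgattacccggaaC
B2m (chr2:122147507-122147686, plus): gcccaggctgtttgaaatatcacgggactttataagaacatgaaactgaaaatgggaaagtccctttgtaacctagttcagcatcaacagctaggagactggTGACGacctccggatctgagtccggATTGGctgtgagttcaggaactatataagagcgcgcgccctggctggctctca
H2-Aa (chr17:34287824-34288003, minus): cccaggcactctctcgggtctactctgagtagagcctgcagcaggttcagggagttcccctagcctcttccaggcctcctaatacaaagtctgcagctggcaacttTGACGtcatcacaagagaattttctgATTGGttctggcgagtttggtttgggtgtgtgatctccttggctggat
H2-Eb1 (chr17:34305687-34305866, plus): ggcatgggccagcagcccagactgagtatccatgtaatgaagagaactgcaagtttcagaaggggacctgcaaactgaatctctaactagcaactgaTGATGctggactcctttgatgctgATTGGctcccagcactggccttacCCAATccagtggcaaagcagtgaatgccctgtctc
Tapbp (chr17:33919298-33919477, plus): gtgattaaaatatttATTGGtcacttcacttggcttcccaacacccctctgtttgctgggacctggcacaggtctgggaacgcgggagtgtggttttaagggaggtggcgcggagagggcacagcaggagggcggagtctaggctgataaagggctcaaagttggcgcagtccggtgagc

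The spaced pair was found in 9 of the 30 members with a window used here, and in 0.846% of all 32851 windows. The 9 were B2m, H2-Aa, H2-D1, H2-DMb1, H2-DMb2, H2-Eb1, H2-K1, H2-M3 and H2-Q7. Cd74 was not among the 30. A member counted if any of its windows matched, whereas the percentages are of single windows, so they are not like for like. The kB letters were found in 4 members, H2-D1, H2-K1, H2-Q6 and H2-Q7, and in 0.213% of windows. The letters AAGTGAAA were found in 8 members, all class I heavy chains, and in 1.36% of windows, and CCAAT in 26 members and in 33.8% of windows. In the windows shown, H2-D1 and H2-Q7 held the kB letters, AAGTGAAA and the pair, B2m, H2-Aa and H2-Eb1 held the pair without the other 2, and Tapbp held CCAAT alone. The genes shown are a choice. H2-Q4, H2-T22, Tap1 and Psmb9 had CCAAT without the pair, and each was also lowest in nontransgenic library 3. H2-M3 held the pair, yet it was highest of its group in that library (3.21 CPM). Whether the pair goes with the levels was not tested. A match describes letters in a window and is not evidence of binding.

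The abundant class I genes overlapped between the 4 groups. B2m, the light chain of every class I molecule, had 353, 260 and 219 CPM in nontransgenic libraries 1, 2 and 3, 330, 596 and 339 in MYBPC3 deletion libraries, 518, 330 and 352 in HRC variant libraries, and 249, 541 and 278 in compound libraries. One library per mutant group stood above its 2 neighbours: MYBPC3 deletion 2, HRC variant 1 and compound 2. H2-K1, a classical heavy chain, had 167, 128 and 89.5 CPM in nontransgenic hearts, 144, 241 and 116 in deletion hearts, 241, 148 and 167 in HRC variant hearts, and 100.6, 224 and 111 in compound hearts. H2-D1, the other classical heavy chain, had 319, 235 and 174 CPM, then 256, 403 and 231, then 398, 232 and 269, then 190, 328 and 193, in the same order of groups, which the lists below keep. For these 3 genes every mutant group overlapped the nontransgenic one, and the same 3 libraries were on top. H2-K1 averaged 128 ± 38.8 CPM (SD, n = 3) in nontransgenic hearts, 167 ± 65.5 in deletion hearts, 186 ± 49.0 in HRC variant hearts and 145 ± 68.4 in compound hearts. The ratio of H2-K1 to H2-D1 stayed between 0.50 and 0.68 in the 12 libraries.

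The class II genes moved in concert and over a wider range. Cd74, the invariant chain, had 299, 368 and 100 CPM in nontransgenic libraries, 265, 492 and 194 in deletion hearts, 507, 235 and 251 in HRC variant hearts, and 156, 358 and 178 in compound hearts. H2-Aa, the alpha chain of the class II molecule I-A, had 83.5, 104 and 28.0 CPM, then 88.4, 147 and 51.5, then 143, 63.6 and 81.1, then 44.2, 123 and 57.2. In both, nontransgenic library 3, the only female of its group, was the lowest of the 12, and all groups overlapped. H2-Ab1, the beta chain of I-A, had 82.9, 74.2 and 22.8 CPM, then 63.5, 119 and 49.0, then 130, 60.7 and 67.1, then 41.3, 97.4 and 47.4. H2-Eb1, the beta chain of I-E, had 39.1, 56.2 and 16.5 CPM, then 42.5, 68.1 and 31.7, then 80.3, 34.7 and 35.2, then 21.1, 60.5 and 26.4. In mice of the b haplotype, which C57BL strains carry, this chain lacks its alpha partner. The highest library of a group was the same in the 3 mutant groups for all 4 genes, and between them the ratios were nearly fixed: H2-Aa to Cd74 0.27 to 0.34, H2-Aa to H2-Ab1 1.01 to 1.40, and H2-Aa to H2-Eb1 1.63 to 2.31.

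**Figure D1:**
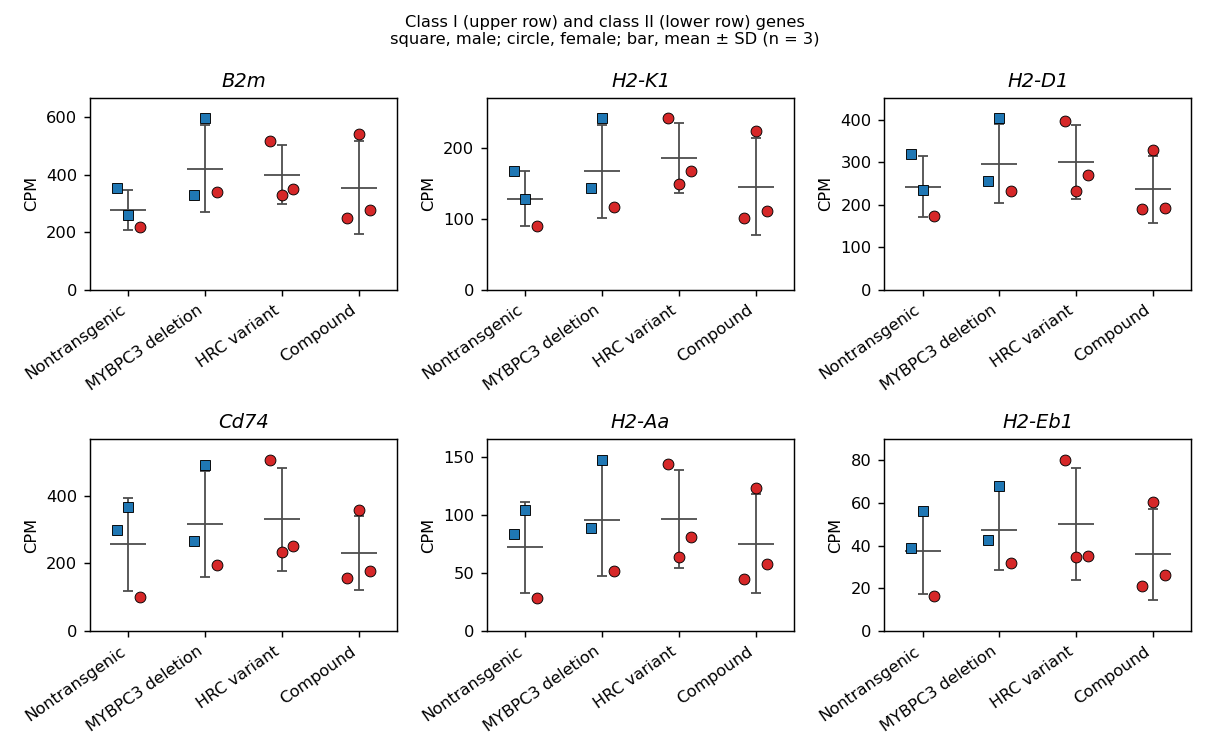
CPM of B2m, H2-K1 and H2-D1 (upper row) and Cd74, H2-Aa and H2-Eb1 (lower row) in the 4 groups; each point is a library, squares are males and circles females, and bars give the mean ± SD (n = 3). In each mutant group 1 library stands above the other 2 for every gene shown, and the single female of the nontransgenic group is the lowest there, at 100 CPM for Cd74 and 28.0 CPM for H2-Aa.

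Per length, these genes span a wide range. As medians of the deposited TPM over 12 libraries, B2m had 699 TPM, Cd74 346, H2-D1 250, H2-K1 143, H2-Aa 126, H2-Ab1 97.5, Tapbp 67.9, Psmb10 59.4, H2-Q4 44.7 and H2-Eb1 38.2. The ranges of neighbours in this order overlapped, for example H2-K1 (98.5 to 251 TPM) and H2-Aa (48.7 to 236 TPM). The coactivators were near 1 TPM, with a median of 0.96 for Nlrc5 and 0.705 for Ciita.

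Set side by side, class II varied more than class I. Across the 12 libraries the highest CPM was 5.15 times the lowest in the median class II gene (8 genes without a 0; from 4.16 for H2-DMa to 43.8 for H2-DMb2) and 3.04 times in the median class I heavy chain (12 genes; from 2.04 for H2-T23 to 11.6 for H2-Q7). The within-group SD on the log2 scale had a median of 0.75 in class II genes and 0.41 in class I heavy chains, against 0.25 over all 13849 tested genes. Group membership accounted for a median of 13.3% of the spread in class II, 22.1% in class I and 30.4% over all tested genes, so most of the spread of both classes lay between hearts of one group. H2-Aa to H2-K1, a class II to class I ratio, ran from 0.31 in nontransgenic library 3 to 0.81 in nontransgenic library 2. These are descriptions of 12 libraries, and the difference between the classes was not tested.

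The same few libraries carried this spread. Nontransgenic library 3 was the lowest of all 12 for 23 of 33 members (for 7.82% of all tested genes). The highest library was MYBPC3 deletion 2 for 14 members, HRC variant 1 for 8 and compound 2 for 6 (16.7%, 10.3% and 4.21% of all tested genes). Within their groups these were the highest for 30, 29 and 29 of 33 members (38.1%, 41.8% and 34.1% of all tested genes).

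**Figure D2:**
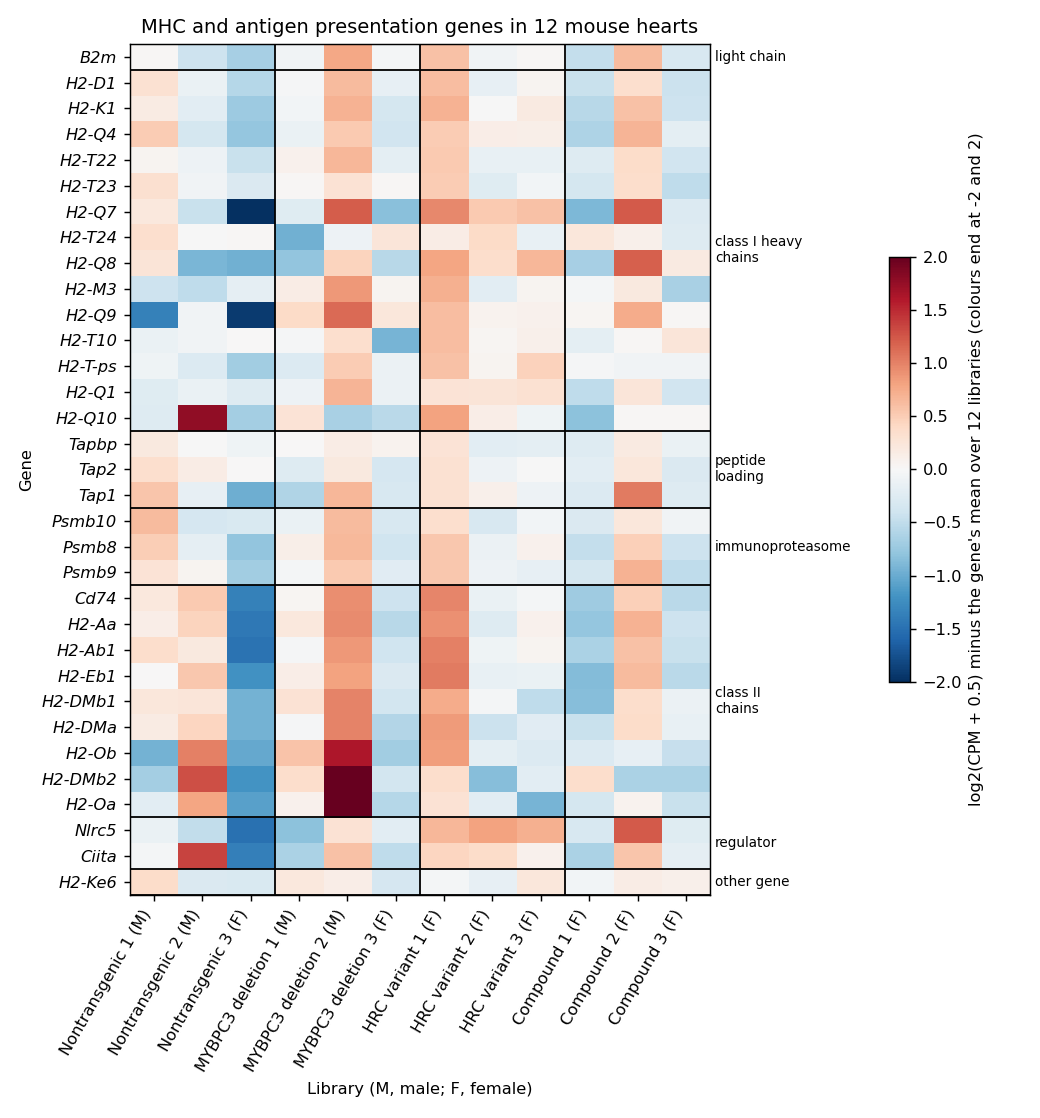
The 33 tested genes (rows, by role) in the 12 libraries (columns, by group): colour gives log2(CPM + 0.5) less the gene's mean over the libraries, and colours end at -2 and 2. Nontransgenic library 3 is low, and MYBPC3 deletion library 2, HRC variant library 1 and compound library 2 are high, in most class I and class II rows. Rows that depart from this in part include H2-M3, H2-T10, H2-T24, H2-Q10 and H2-DMb2. Tapbp, Tap2 and H2-Ke6 stay pale.

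Markers of other cell types moved with part of this pattern. Summed CPM of 10 B cell markers was 66.6 in nontransgenic library 2 and 110 in MYBPC3 deletion library 2, against 6.37 to 13.5 in the other 10 libraries. Summed CPM of 12 macrophage markers was 736 in MYBPC3 deletion library 2 and 728 in HRC variant library 1, against 363 to 606 elsewhere, and 5 general leukocyte markers gave 193, 135 and 147 CPM in MYBPC3 deletion 2, HRC variant 1 and nontransgenic 2, and 65.9 to 107 elsewhere. In compound library 2 class II summed to 663 CPM and class I to 752 CPM there, against 276 to 326 and 389 to 412 CPM in the other compound libraries, while its B cell, macrophage and leukocyte markers gave 9.26, 449 and 72.4 CPM, against 6.37 to 9.95, 369 to 401 and 70.0 to 71.8 CPM. Its NK cell markers, at 2.53 CPM summed over 5 genes, were the highest of the 12 libraries (0.341 to 2.21 CPM elsewhere). Of these 5 genes only 1, Nkg7, passed the filter on low counts, so this sum rests on few reads. Dendritic cell markers gave 24.5 CPM in compound library 2, 24.7 CPM in MYBPC3 deletion library 2 and 13.9 to 23.8 CPM elsewhere. In compound library 2 most of that sum was 1 gene, Zbtb46, at 20.9 CPM. The median log2 level of the 6 tested dendritic cell markers, relative to the mean of 12 libraries, was -0.21 there and 0.76 in MYBPC3 deletion library 2. T cell markers gave 19.3 CPM in MYBPC3 deletion library 2 and 8.51 to 15.4 CPM elsewhere. Fibroblast markers were highest in HRC variant library 1, at 2056 CPM against 1126 to 1724 CPM elsewhere, and endothelial markers ran from 869 to 1197 CPM. The thymocyte markers Ptcra and Themis together gave 0 to 0.447 CPM. In whole tissue, more cells of a type and more RNA per cell cannot be told apart, and the part of these cells in the results was not tested.

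**Figure D3:**
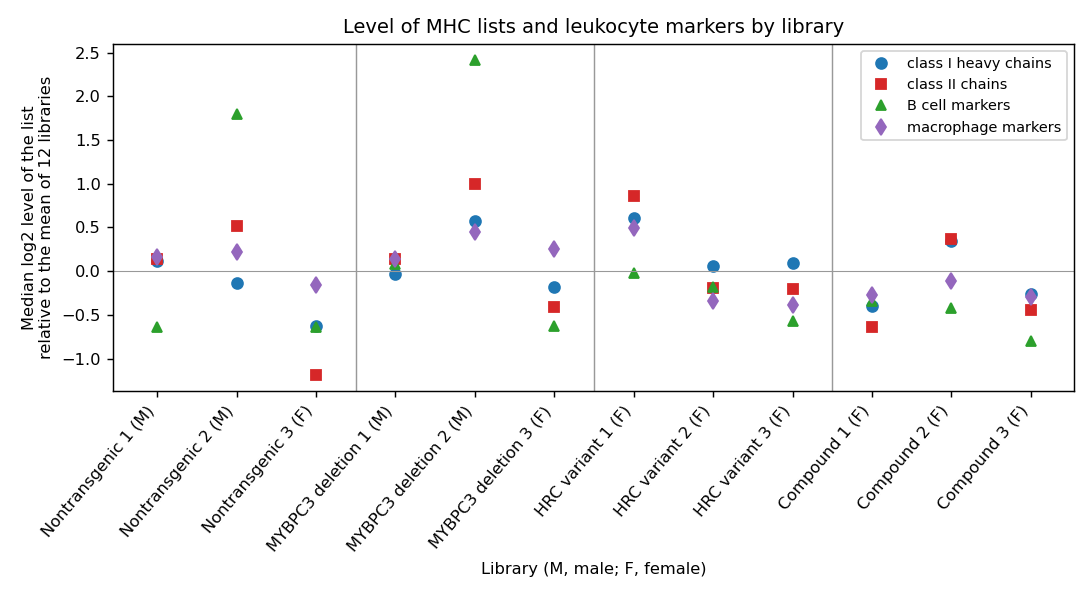
Median log2 level of the class I heavy chains, the class II genes, the B cell markers and the macrophage markers in each library, relative to the mean of 12 libraries. B cell markers stand high in nontransgenic library 2 and MYBPC3 deletion library 2 only, whereas both MHC classes are high in MYBPC3 deletion library 2, HRC variant library 1 and compound library 2, and only class II (0.52, against -0.14 for class I) is high in nontransgenic library 2.

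Class II genes linked to B cells were high where B cell markers were high, with exceptions. H2-Oa and H2-Ob encode H2-O, which restrains H2-DM and is known mainly from B cells. H2-Ob had 0.536, 3.54 and 0.487 CPM in nontransgenic libraries, 2.46, 5.64 and 0.744 in deletion hearts, 3.07, 1.26 and 1.17 in HRC variant hearts, and 1.16, 1.29 and 0.951 in compound hearts. H2-Oa had 0.417, 1.34 and 0 CPM, then 0.632, 5.77 and 0.213, then 0.792, 0.419 and 0.0555, then 0.332, 0.617 and 0.280. Both were highest of all in MYBPC3 deletion 2, and within their own group in nontransgenic 2, the 2 libraries high in B cell markers. H2-DMb2, a DM beta chain gene, ran from 0.146 to 6.41 CPM with 3.08 in nontransgenic 2 and 6.41 in MYBPC3 deletion 2, whereas H2-DMb1 ran from 4.14 to 17.3 CPM; their ratio was 0.37 in MYBPC3 deletion 2, 0.31 in nontransgenic 2 and also 0.31 in compound library 1, whose B cell markers were at 9.95 CPM, and 0.04 to 0.13 elsewhere. H2-DMa, the alpha chain, ran from 4.19 to 17.4 CPM.

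The genes that load class I molecules did not share one pattern. Tapbp, which bridges the transporter and the heavy chain, had 130, 114 and 108 CPM in nontransgenic hearts, 115, 127 and 120 in deletion hearts, 138, 98.5 and 99.5 in HRC variant hearts, and 95.5, 129 and 104 in compound hearts. Tap2 had 53.2, 46.6 and 42.5 CPM, then 35.3, 48.4 and 33.5, then 52.1, 39.1 and 42.1, then 36.3, 49.3 and 34.3. Highest over lowest was 1.44 for Tapbp and 1.59 for Tap2, and all groups overlapped. Tap1, the partner of Tap2, had 27.3, 16.3 and 9.11 CPM, then 11.9, 29.4 and 14.6, then 22.8, 19.6 and 17.03, then 15.1, 38.2 and 15.2. It was lowest in nontransgenic library 3, highest in compound library 2, and ranged over 4.20 times.

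The inducible proteasome subunits replace constitutive ones and favour peptides that fit class I. Psmb8 had 29.5, 18.3 and 11.7 CPM in nontransgenic hearts, 22.5, 32.9 and 15.6 in deletion hearts, 30.5, 19.1 and 21.97 in HRC variant hearts, and 14.8, 29.0 and 15.5 in compound hearts. Psmb9 had 10.4, 8.94 and 5.11 CPM, then 8.34, 12.5 and 7.28, then 12.7, 7.95 and 7.60, then 6.58, 14.3 and 5.87. Psmb10 had 74.1, 37.6 and 38.6 CPM, then 43.5, 74.7 and 38.1, then 60.8, 38.3 and 46.2, then 39.2, 55.9 and 45.7. Every group overlapped every other for the 3 subunits, and Psmb8 and Psmb9 were lowest in nontransgenic library 3.

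Nlrc5 and 4 H2-Q genes were among the 7 members in which all HRC variant libraries lay above all nontransgenic ones (4.18% of all tested genes). Nlrc5 had 4.17, 3.13 and 1.31 CPM in nontransgenic hearts, 2.40, 5.77 and 3.93 in deletion hearts, 7.62, 8.42 and 7.88 in HRC variant hearts, and 3.59, 11.4 and 3.80 in compound hearts. All 3 HRC variant libraries lay above all nontransgenic and all deletion libraries, and did not share the single high library seen in class II genes. H2-Q7, a nonclassical heavy chain of the Qa-2 family, had 11.1, 6.83 and 2.00 CPM, then 7.96, 22.7 and 5.10, then 18.9, 13.9 and 14.5, then 4.87, 23.1 and 7.83. H2-Q8 had 7.09, 2.88 and 2.78 CPM, then 3.16, 8.12 and 3.83, then 10.4, 7.59 and 9.54, then 3.48, 14.1 and 6.71. HRC variant libraries lay above all nontransgenic ones for both genes, while deletion and compound libraries overlapped them. H2-Q9, also Qa-2, had 0.238, 1.28 and 0 CPM, then 1.96, 3.62 and 1.70, then 2.37, 1.46 and 1.50, then 1.44, 2.64 and 1.40, so that all 9 mutant libraries lay above the nontransgenic ones. The margin was narrow: nontransgenic library 2 had 25 reads of H2-Q9, and compound libraries 1 and 3 had 26 and 25. How far H2-Q8 and H2-Q9 share reads with H2-Q7 was not measured, so their sum is given too. H2-Q6 to H2-Q9 together gave 18.4, 11.0 and 4.77 CPM in nontransgenic hearts, 13.1, 34.4 and 10.6 in deletion hearts, 31.8, 22.9 and 25.6 in HRC variant hearts, and 10.6, 39.8 and 15.9 in compound hearts. Summed, the HRC variant libraries again lay above the nontransgenic ones, and the other groups overlapped.

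**Figure D4:**
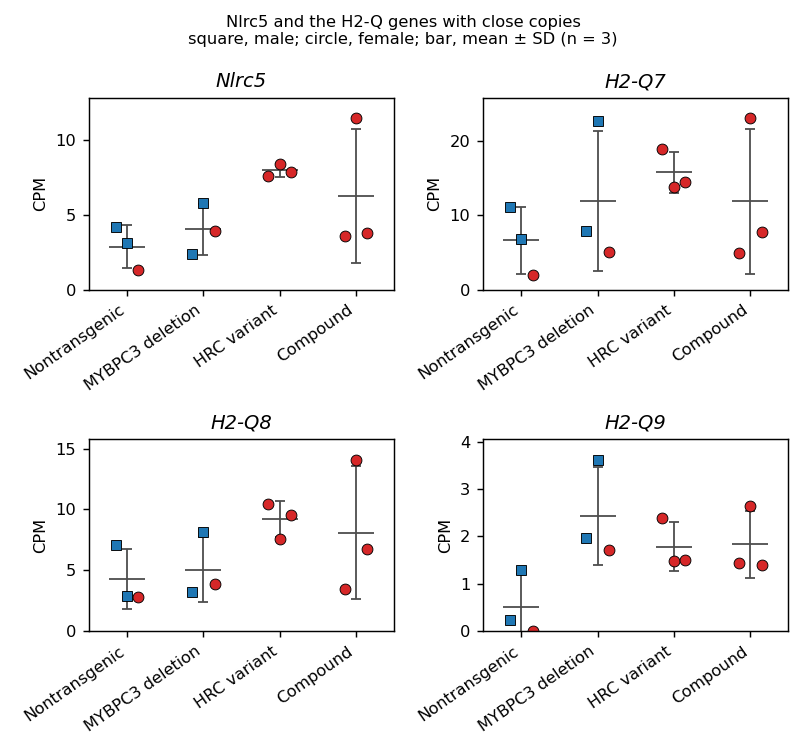
CPM of Nlrc5, H2-Q7, H2-Q8 and H2-Q9 in the 4 groups; each point is a library, squares are males and circles females, and bars give the mean ± SD (n = 3). HRC variant libraries (7.62 to 8.42 CPM of Nlrc5) lie above the nontransgenic ones for each gene, and compound hearts hold 1 high library, at 11.4 CPM of Nlrc5.

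Ciita, the class II coactivator, did not follow Nlrc5. It had 2.32, 6.93 and 0.633 CPM in nontransgenic hearts, 1.39, 3.87 and 1.54 in deletion hearts, 3.41, 3.24 and 2.61 in HRC variant hearts, and 1.38, 3.76 and 2.07 in compound hearts. All groups overlapped, and the highest library was nontransgenic 2, which was high in B cell markers.

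The other heavy chains were at lower levels or varied little. H2-Q4 had 66.3, 36.4 and 27.0 CPM in nontransgenic hearts, 42.4, 67.0 and 35.7 in deletion hearts, 66.2, 51.0 and 50.6 in HRC variant hearts, and 30.02, 74.6 and 40.6 in compound hearts. H2-T23, the Qa-1 heavy chain that NK cell receptors read, had 30.9, 23.5 and 20.1 CPM, then 25.1, 30.3 and 25.1, then 35.2, 20.8 and 23.8, then 19.2, 31.5 and 17.2. H2-T22 and H2-T10, near-identical ligands of some gamma delta T cells, together gave 32.6, 29.5 and 23.3 CPM, then 33.6, 50.3 and 26.9, then 46.0, 28.6 and 28.8, then 26.3, 40.6 and 24.7. Every group overlapped the nontransgenic one in these 3 values. Of the pair, H2-T10 alone had 1.01, 1.08 and 1.17 CPM, then 1.14, 1.59 and 0.372, then 2.03, 1.20 and 1.28, then 0.940, 1.18 and 1.45. H2-T24 had 9.71, 7.55 and 7.69 CPM, then 3.66, 7.04 and 9.09, then 8.46, 10.1 and 6.82, then 9.01, 8.19 and 6.26, and its highest library was HRC variant 2. H2-M3, which presents formylated peptides, had 2.68, 2.47 and 3.21 CPM, then 4.17, 7.23 and 3.88, then 6.38, 3.14 and 3.88, then 3.59, 4.32 and 2.18. For H2-M3 the deletion libraries lay above all nontransgenic ones, and the other groups overlapped them. H2-Q1, with 102 reads in all, had 0.298, 0.360 and 0.292 CPM, then 0.379, 1.01 and 0.372, then 0.643, 0.628 and 0.666, then 0.166, 0.617 and 0.224. H2-T-ps had 0.715, 0.565 and 0.292 CPM, then 0.568, 1.33 and 0.691, then 1.43, 0.837 and 1.28, then 0.774, 0.730 and 0.727. HRC variant libraries lay above the nontransgenic and the compound ones for both. H2-Q10, known as a heavy chain secreted by liver, had 2.52 CPM in nontransgenic library 2 and 0 to 1.04 elsewhere. The 8 members left out by the filter had 41 reads or fewer over all libraries: H2-Eb2 had 41, H2-M2 31, H2-Q2 16, H2-Q6 15, all of them in compound library 1, H2-M5 4, H2-M1 and H2-Bl 2 each, and H2-M9 1. H2-Ke6 had 33.1 to 54.5 CPM.

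The comparison of the HRC variant with nontransgenic hearts gave the largest median difference of the 3 comparisons with nontransgenic hearts when sex was in the model (1.13, against 0.38 for the deletion and 0.83 for the compound group). With sex left out of the model the order turned, to 0.27 for the HRC variant, 0.31 for the deletion and 0.05 for the compound group. With sex in the model, Nlrc5 differed by 2.01 on the log2 scale (SE 0.64; edgeR quasi-likelihood test, adjusted p = 0.656), H2-Q7 by 2.75 (SE 0.78; adjusted p = 0.635), H2-Q9 by 3.22 (SE 1.03; adjusted p = 0.656), H2-Aa by 1.58 (SE 0.57; adjusted p = 0.728) and H2-K1 by 1.05 (SE 0.40; adjusted p = 0.728). By edgeR 0 of 33 members were called at an adjusted p under 0.05 (0% of all tested genes), and 15 had an unadjusted p under 0.05, all higher (3.29% of all tested genes were higher by that measure). DESeq2 called 1 member, H2-Q7 (adjusted p = 0.00654; 0.181% of all tested genes), and limma-voom called 0. By sign, 31 of 33 members lay above 0 (50.7% of all tested genes), with a median of 1.13, against 0.00 over all tested genes. The median was 1.00 for class I heavy chains and 1.58 for class II genes. The 2 below 0 were H2-T24 (-0.19) and Tapbp (-0.00), and Tap2 lay at 0.09 (SE 0.21). In 7 members, Nlrc5, H2-Q1, H2-Q7, H2-Q8, H2-Q9, H2-T-ps and H2-T10, the groups did not overlap (4.18% of all tested genes in that direction).

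These differences leaned on how sex was treated. HRC variant hearts were all female, and the nontransgenic group held 1 female, library 3. Without the sex term the class II median dropped from 1.58 to 0.26 and the class I median from 1.00 to 0.50, with 26 of 33 members above 0, while Nlrc5 went from 2.01 to 1.48 and H2-Q7 from 2.75 to 1.26. H2-Q9, with 4, 25 and 0 reads in nontransgenic libraries 1, 2 and 3, went from 3.22 to 1.79, and its value was 8.09 in a fit of only the groups compared. Against that female alone, all 3 HRC variant libraries were higher in 28 of 33 members (21.6% of all tested genes), and against the 2 nontransgenic males in 8 (7.89%): H2-M3, H2-Q1, H2-Q7, H2-Q8, H2-Q9, H2-T-ps, H2-T10 and Nlrc5. Without nontransgenic library 3, Nlrc5 differed by 1.20 and H2-Q7 by 2.42, with the class II median at 1.10 and the class I median at 1.21. The male minus female term itself was above 0 in 32 of 33 members (51.3% of all tested genes), with a median of 0.75 (H2-Aa 1.46, SE 0.49). Its lowest adjusted p by edgeR was 0.312, so 0 members passed (0.0578% of all tested genes, 8 genes), and 12 had an unadjusted p under 0.05, all higher in males (7.37% in that direction). It rests on the 2 groups that held both sexes: both males lay above the female in 29 of 33 members in nontransgenic hearts (29.8% of all tested genes) and in 23 of 33 with the deletion (37.3%).

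**Figure D5:**
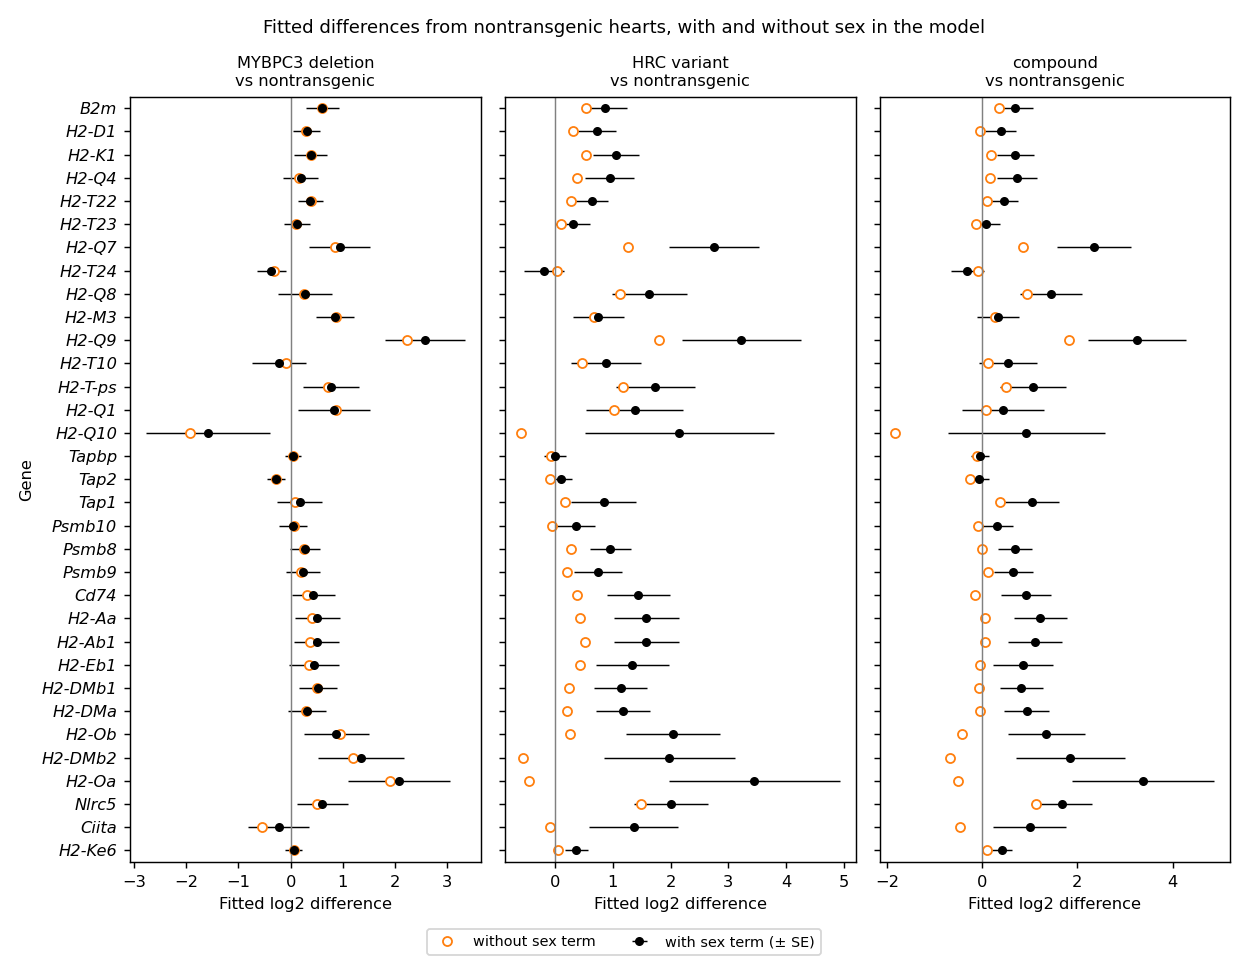
Fitted log2 difference of each tested gene from nontransgenic hearts in the 3 mutant groups, with sex in the model (black, ± SE) and without it (open circles). For the HRC variant and the compound group the class II medians are 0.26 and -0.07 without the sex term and 1.58 and 1.11 with it, while Nlrc5 and H2-Q7 stay above 0 in both.

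No member passed the test for the MYBPC3 deletion. H2-Q9 differed by 2.57 (SE 0.76; edgeR adjusted p = 0.420), H2-M3 by 0.85 (SE 0.37; adjusted p = 0.586) and H2-Oa by 2.07 (SE 0.97; adjusted p = 0.614). B2m differed by 0.61 (SE 0.31), H2-K1 by 0.38 (SE 0.31), H2-Aa by 0.51 (SE 0.43) and Tap2 by -0.28 (SE 0.17). By edgeR 0 of 33 members were called (0% of all tested genes), by DESeq2 0 (0.664%; 13 members had no adjusted p) and by limma-voom 0, and 2 had an unadjusted p under 0.05, H2-M3 and H2-Q9, both higher (2.94% in that direction). By sign 28 of 33 members lay above 0 (49.2% of all tested genes), with a median of 0.38, against -0.00 over all tested genes. The groups did not overlap in 3 members, H2-M3, H2-Q1 and H2-Q9 (4.9% of all tested genes in that direction). The median was 0.34 for class I and 0.51 for class II. Both rested in part on deletion library 2: without it they were 0.12 and 0.31, and H2-Oa, with 91 of its 185 reads there, differed by 0.44. H2-Q9 differed by 1.86 without nontransgenic library 3, which had 0 reads of it.

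Compound hearts compared with nontransgenic ones gave 0 members called by edgeR and 1, H2-Q7, called by DESeq2. H2-Q9 differed by 3.26 (SE 1.03; edgeR adjusted p = 0.630), H2-Q7 by 2.34 (SE 0.78; adjusted p = 0.667), Nlrc5 by 1.67 (SE 0.64; adjusted p = 0.688), H2-Aa by 1.22 (SE 0.56; adjusted p = 0.787) and H2-K1 by 0.70 (SE 0.39; adjusted p = 0.841). By edgeR 0 members were called (0% of all tested genes); 5 had an unadjusted p under 0.05, H2-Q7, H2-Q8, H2-Q9, H2-Oa and Nlrc5, all higher (2.14% in that direction). DESeq2 called H2-Q7 (adjusted p = 0.0360; 0.274% of all tested genes), and limma-voom called 0. By sign 30 of 33 lay above 0 (49.7%), with a median of 0.83, or 0.62 in class I and 1.11 in class II. Without the sex term 17 of 33 lay above 0, these medians were 0.15 and -0.07, and H2-Q9 differed by 1.83, H2-Q7 by 0.85 and H2-Oa by -0.50 (3.39 with it). Without compound library 2 they were 0.26 and 0.65, Nlrc5 differed by 0.90 and H2-Q7 by 1.43. The groups did not overlap in H2-Q9 and H2-T-ps (8.79% of all tested genes in that direction). Both comparisons use the same nontransgenic libraries, so their likeness is not independent evidence.

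No member passed the test between compound hearts and either single group. Against the HRC variant, which is a comparison among females, the medians were -0.34 in class I and -0.36 in class II, with 3 of 33 members above 0 (47.6% of all tested genes). H2-K1 differed by -0.35 (SE 0.31), H2-Aa by -0.36 (SE 0.43), Nlrc5 by -0.34 (SE 0.46) and H2-Q7 by -0.41 (SE 0.55), each less than 1.5 times its standard error. The smallest p belonged to H2-Q1 (-0.93, SE 0.68; edgeR adjusted p = 0.886), H2-T-ps (-0.67, SE 0.51; adjusted p = 0.903) and H2-D1 (-0.34, SE 0.26; adjusted p = 0.905). By edgeR 0 members were called and 0 had an unadjusted p under 0.05 (6.3% of all tested genes); DESeq2 called 0 (0.325%) and limma-voom 0. H2-Q1 and H2-T-ps were lower with no overlap (6.22% of all tested genes in that direction). Without HRC variant library 1 the class II median was 0.04 and the class I median -0.09. Against the MYBPC3 deletion the medians were 0.31 and 0.51 with the sex term, with 29 of 33 members above 0 (52.2% of all tested genes), and -0.21 and -0.46 without it, with 11 above 0, so the direction turned; of the deletion hearts 2 were male. Nlrc5 differed by 1.06 (SE 0.57; edgeR adjusted p = 0.887), H2-Q7 by 1.40 (SE 0.73; adjusted p = 0.882) and H2-Q8 by 1.17 (SE 0.63; adjusted p = 0.891). By edgeR 0 were called and 0 had an unadjusted p under 0.05 (5.73% of all tested genes), DESeq2 called 0 (0.0433%) and limma-voom 0, and in 0 members did the groups not overlap (11.5% of all tested genes higher and 13.7% lower).

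The interaction, the compound difference less the sum of both single differences, was below 0 for 29 of 33 members (48.4% of all tested genes lay above 0). Its median was -0.60 in class I and -0.96 in class II, against -0.01 over all tested genes. H2-K1 had -0.74 (SE 0.44; edgeR adjusted p = 0.675), H2-Aa -0.87 (SE 0.61; adjusted p = 0.713), Nlrc5 -0.95 (SE 0.67; adjusted p = 0.710), H2-Q9 -2.54 (SE 1.02; adjusted p = 0.563), H2-M3 -1.26 (SE 0.51; adjusted p = 0.563) and H2-T-ps -1.43 (SE 0.74; adjusted p = 0.632). By edgeR 0 members were called (0% of all tested genes), by DESeq2 0 (0.361%; 20 members had no adjusted p) and by limma-voom 0, and 2 had an unadjusted p under 0.05, H2-M3 and H2-Q9, both lower (4.05% in that direction). The class I median was -1.01 without compound library 2 and -0.38 without HRC variant library 1.

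Other genes of presentation and its induction, from a list of 30 of which 29 were tested, lay near 0 as a list. The list holds peptide trimming and chaperone genes (Erap1, Calr, Canx, Pdia3), proteasome activators and constitutive subunits, lysosomal proteases, class I-like genes (Cd1d1, Mr1, Fcgrt, Hfe), the factors of the SXY module (Rfx5, Rfxap, Rfxank) and the interferon gamma pathway. By edgeR 0 were called in every one of the 6 comparisons, and by DESeq2 0. For the HRC variant against nontransgenic hearts 14 of 29 lay above 0 (50.7% of all tested genes), with a median of -0.01. By edgeR 0 of them had an unadjusted p under 0.05 (3.29% of all tested genes were higher by that measure). For compound against deletion hearts 2 were higher and 3 lower by that measure (5.73% of all tested genes in either direction). Against HRC variant hearts 2 were higher and 2 lower (6.3%). In compound hearts against nontransgenic ones 17 of 29 lay above 0 (49.7% of all tested genes), with a median of 0.01. Those with an unadjusted p under 0.05 included Psme2 and Rfx5, which were higher (2.14% of all tested genes in that direction). They also included Ctsl, Mr1 and Ifngr1, which were lower. The share of all tested genes that were lower by that measure is not given here. Ifngr1, a chain of the interferon gamma receptor, had 60.5, 66.2 and 59.6 CPM in nontransgenic hearts and 49.1, 44.1 and 44.0 CPM in compound hearts (-0.44, SE 0.14; edgeR adjusted p = 0.630). Mr1, which presents vitamin metabolites, had 14.5, 20.8 and 23.3 CPM and 14.0, 17.8 and 13.1 CPM (-0.67, SE 0.23; adjusted p = 0.667).

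The authors' deposited table gives log2 fold changes without a stated covariate. In the authors' deposited table, Nlrc5 had a log2 fold change of 1.47 for the HRC variant over nontransgenic (q = 0.215) and 1.13 for the compound group (q = 0.384). H2-Q7 had 1.25 (q = 1) and 0.84 (q = 0.877) in the authors' deposited table, and H2-Aa 0.41 (q = 1) and 0.06 (q = 0.990). The smallest q of a member in the authors' deposited table was 0.169, for H2-Oa in the compound group over the deletion, with a log2 fold change of -2.41. Genes of any kind with q under 0.05 numbered 716 there, of about 16880 with a q. For the compound group they numbered 407 over nontransgenic and 65 over the HRC variant. Over nontransgenic they numbered 16 for the deletion and 13 for the HRC variant. For compound over deletion hearts, the fit with sex used here gave H2-Oa the opposite direction, at 1.31 (SE 1.34). Of the 185 reads of H2-Oa, 91 lay in deletion library 2.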

How the data were processed

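Heart mRNA of 12 mice in 4 groups was sequenced after oligo(dT) selection, per the labels' protocols. The authors deposited 1 table with an expected count, that is an estimated number of reads, and a TPM value per gene and library, and with log2 fold changes and q-values of their own between groups, per the file headers. GRCm38.p6 is the build, and HISAT, Bowtie2 and DESeq2 are the tools, per the submitters' processing notes; the sources used here give neither their roles nor the counting rule. Of the deposited expected counts 94.3% were whole, and all were rounded. One line without values was dropped, 25 symbols turned into dates were restored from gene identifiers, and 12 per-sample columns in another unit were not used.

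Counts were analysed with edgeR 4.0.16 in R 4.3.3: filter with a minimum count of 10 (13849 genes kept, 3530 removed), TMM scaling, and 1 robust quasi-likelihood fit over 12 libraries with group and sex (7 residual degrees of freedom, common biological coefficient of variation 21.5%). Calls needed a Benjamini-Hochberg adjusted p under 0.05 over all genes. DESeq2 1.42.0 and voom of limma 3.58.1 were alternatives, besides other filters, scalings and sets of libraries. The fit was tested on simulated data. Shared sequence was counted in GENCODE M21 transcripts, and promoter letters in RefSeq windows. Members, lists and the genes named (the main member of each role, H2-Q and H2-T genes from 1 CPM, and the 3 members with the smallest p in each comparison) were chosen with earlier results of these data known. The 8 members left out by the filter had 41 reads or fewer over all libraries, and no difference was tested in them here. A further gene of the list of presentation partners is not reported here.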

Additional observations from a re-analysis of the deposited data

How the results depend on the processing

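No alternative called a member except DESeq2, which called H2-Q7 for the HRC variant (2.76) and the compound group (2.36) against nontransgenic hearts, 1 member each. Without the sex term the class I and class II medians were 0.50 and 0.26 for the HRC variant, 0.15 and -0.067 for the compound group, both against nontransgenic hearts, and -0.21 and -0.46 for compound against deletion hearts. Of 198 member differences, 39 changed sign without the sex term and 1 to 17 under each of the others, all uncalled. With a minimum count of 30 there were 162 differences to compare, and with only the groups compared 153. DESeq2 called 92, 25 and 38 genes for the deletion, the HRC variant and the compound group against nontransgenic hearts, 6 and 45 for compound against deletion and HRC variant hearts, and 50 for the interaction, where edgeR called 0. With only the groups compared in the fit (not run for the interaction), edgeR called 1 gene for the deletion, 15 for compound against nontransgenic and 57 for compound against deletion hearts. Leaving out 1 library gave 0 to 8 called genes for the HRC variant (8 without HRC variant library 1 and 1 without compound library 3), 0 to 3 for compound against nontransgenic (3 without HRC variant library 3 and 1 without nontransgenic library 1), 0 to 13 for compound against HRC variant hearts (13 without HRC variant library 3 and 4 without library 1) and 0 to 5 for the interaction (5 without HRC variant library 1), and an interaction median of class I from -1.01 to -0.38. The cause was not tested. Replicate numbers showed no clear pairing of the libraries. Over 18 pairs with the same number, deviations correlated from -0.24 to 0.32, and 2 of 12 libraries correlated best with their own number. Whether hearts with the same number shared a litter or a batch was not tested. A fit with the replicate number as a block called 1 gene for the interaction and 0 members. Without nontransgenic library 2 and deletion library 2, chosen after seeing their B cell markers, 30 of 33 members lay above 0 for the HRC variant (median 1.03) and 23 for the deletion (0.21).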
